A study of Rattus norvegicus with 6 samples.

Results

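Mitochondria divide and fuse continually, and the genes described here encode the proteins that carry this out. They were chosen as 10 named genes, and a row of the deposited table was taken for each one whose gene name equals that symbol. There were 9 such rows among the 34257 genes of the table (Mff, Mfn1, Opa1, Dnm1l, Fis1, Mief1, Mief2, Oma1 and Mtfr1), and no row was named Mfn2. The samples were neonatal rat ventricular cardiomyocytes, primary heart muscle cells isolated from newborn rats and kept in culture. One group had 3 libraries from cells given vehicle and the other had 3 libraries from cells given perhexiline, an antianginal drug that inhibits carnitine palmitoyltransferase 1, at 1 µM for 24 h. No genetic change is named for either group. Each library was made from poly(A) RNA of a whole culture, so fewer cells of a type and less RNA per cell cannot be told apart. Nothing in the labels ties a replicate to its own culture or litter, so the p-values reflect how far these libraries lie apart, a spread that may be technical.

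In textbook terms, fission is driven by the dynamin-related GTPase DRP1, the product of Dnm1l, which assembles into rings around the outer membrane. It is held there by the adaptors MFF, FIS1, MiD51 (Mief1) and MiD49 (Mief2). Fusion joins the outer membranes through the mitofusins and the inner membranes through OPA1, and the protease OMA1 cuts OPA1 when the membrane potential is lost. Heart muscle cells are packed with mitochondria, and their division and fusion are studied as part of how the heart keeps these organelles intact.

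Of the 9 genes, only Mff passed the test, with a 12.4-fold lower mean under perhexiline, and its value is uncertain because a near copy of the gene has its own row, which held most fragments of the pair in 1 perhexiline library. The other 8 genes differed from vehicle by between -14.7% (Mief2) and 8.52% (Mtfr1) in mean FPKM, the measure of fragments per kilobase of gene length, scaled to library depth, that the authors deposited. The test was limma on log2(FPKM + 1) over 13460 genes, with a call at a Benjamini-Hochberg adjusted p under 0.05. It called 1 of the 9 genes lower and 0 higher, against 3.11% of all tested genes called lower and 3.55% called higher. At an unadjusted p under 0.05 there were 3 of the 9, namely Mff, Opa1 and Mief2, all of them lower, where 25.7% of all tested genes passed in either direction and 12.3% passed as lower. Limma-voom on fragments recovered from the FPKM called 1 of the 9 lower and 0 higher, and among all tested genes it called 5.98% lower and 5.62% higher. The differences were below 0 for 7 genes and above 0 for 2, against 52.9% above 0 among all tested genes. Their median was -0.10 on the log2(FPKM + 1) scale, against 0.01 for all tested genes. The perhexiline libraries were all below the vehicle libraries for 4 of the 9 genes (Mff, Mief2, Opa1 and Dnm1l), where 14.9% of all tested genes behaved that way, and all above them for 0 of the 9, against 17.0% of all tested genes.

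**Figure D1:**
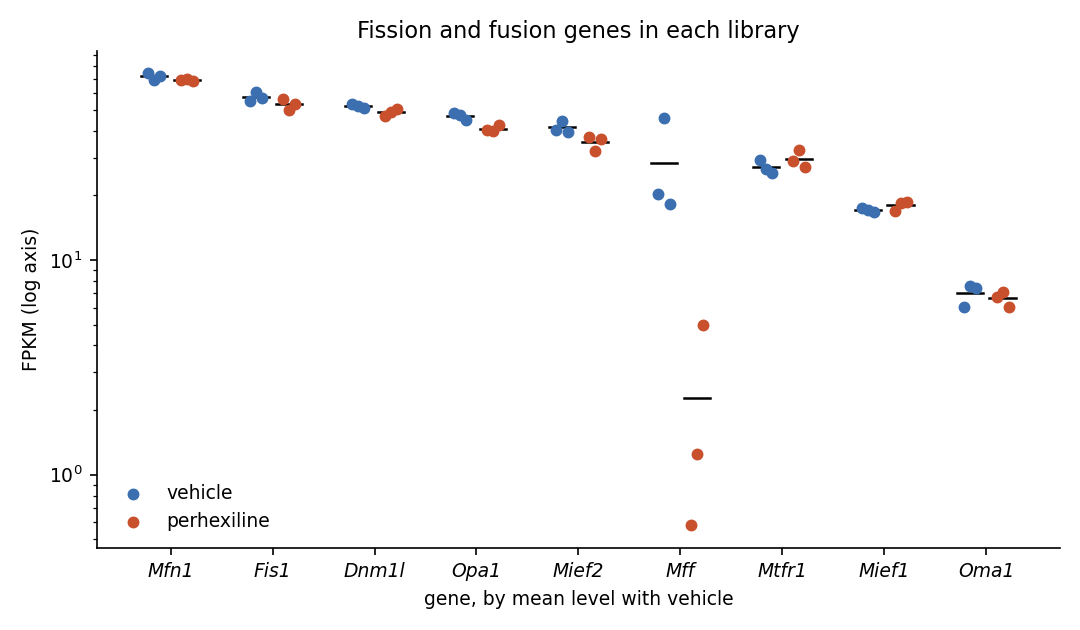
FPKM on a log axis of the 9 genes in each of the 6 libraries, with 1 point per library and a bar at the group mean, ordered by the mean with vehicle. The points of each gene lie close together except for Mff, which ranged from 18.3 to 46.1 FPKM with vehicle and from 0.582 to 4.99 FPKM with perhexiline.

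The promoters of the members with the lowest adjusted p are shown first, as the stretches of DNA around the annotated starts of these genes. They come from RefSeq on the GRCr8 build and run from 250 bases before to 50 bases after the annotated start, on the strand of the gene. Capitals mark matches to the motifs searched.
Mff, chr9:91455681-91455980, plus strand: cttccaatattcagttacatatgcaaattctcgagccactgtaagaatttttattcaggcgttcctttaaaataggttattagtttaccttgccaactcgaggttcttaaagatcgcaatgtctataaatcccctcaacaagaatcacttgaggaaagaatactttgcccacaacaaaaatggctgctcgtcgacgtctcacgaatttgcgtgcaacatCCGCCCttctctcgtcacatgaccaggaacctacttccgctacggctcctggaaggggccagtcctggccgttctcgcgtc
Opa1, chr11:84689851-84690150, minus strand: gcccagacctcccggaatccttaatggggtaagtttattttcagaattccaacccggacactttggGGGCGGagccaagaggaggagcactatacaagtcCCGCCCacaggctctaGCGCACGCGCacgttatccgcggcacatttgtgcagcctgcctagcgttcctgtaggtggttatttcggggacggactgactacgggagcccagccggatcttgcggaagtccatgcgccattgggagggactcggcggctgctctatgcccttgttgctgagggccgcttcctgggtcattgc

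The motifs were the consensus site of nuclear respiratory factor 1 with its middle base left free (the last capital run of the Opa1 window is its match), a GABPA site (CCGGAAG), a YY1 site (AAGATGGCG) and the GC box (GGGCGG), each on both strands, and no match overlapped another. The Opa1 window held 1 match to the nuclear respiratory factor 1 site and 2 GC boxes, and the Mff window held 1 GC box. Windows were matched by symbol for 8 of the 10 listed genes. With a gene counted if any of its windows matched (10 windows in all, since Fis1 and Mief2 had 2 each), 2 of the 8 held the nuclear respiratory factor 1 site (Opa1 and Oma1), 3 held the GABPA site (Mfn1, Fis1 and Mief1), 0 held the YY1 site and 7 held a GC box. Counted by window, the matches were in 2, 3, 0 and 9 of the 10, in that order, and among 33469 promoter windows of the same length in 4.25%, 8.75%, 1.73% and 33.1%. A match describes the letters of the window only.

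The library perhexiline replicate 1 stood apart at Mff and its copy, and this bears on every statement about that gene. Mff encodes the outer membrane adaptor that recruits DRP1 to mitochondria and peroxisomes (chromosome 9, 90880614 to 90908852, plus strand, in the coordinates of the deposited table, whose build no source used here names). With vehicle it stood at 20.2, 46.1 and 18.3 FPKM in replicates 1, 2 and 3, and with perhexiline at 0.582, 1.25 and 4.99 FPKM. The groups did not overlap, but vehicle replicate 2 was far above the other vehicle libraries, and the perhexiline libraries also lay wide apart. The means were 28.2 ± 15.5 and 2.27 ± 2.37 FPKM (SD, n = 3 per group), which is -3.27 ± 0.52 on the log2(FPKM + 1) scale (SE; limma adjusted p = 0.0207). The spread of Mff within groups, an SD of 0.86 on the log2(FPKM + 1) scale, was at the 99.2 percentile of all tested genes, and that of the other 8 members lay between the 3.61 and 64.9 percentiles.

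The copy, LOC102556337, is annotated in the table as mitochondrial fission factor-like and lies on the same chromosome, at 88493593 to 88517827 on the plus strand, 2.36 megabases before Mff. It stood at 1.07, 0.754 and 1.12 FPKM with vehicle and at 52.5, 1.87 and 1.203 FPKM with perhexiline. Only perhexiline replicate 1 was high, and that was the library with the lowest Mff value. The log2 difference of the copy was 1.82 ± 1.08 (SE; limma adjusted p = 0.330).

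In whole fragments recovered from the FPKM, the Mff row held 608, 1540 and 558 with vehicle and 22, 43 and 190 with perhexiline. The copy row held 14, 11 and 15 with vehicle and 867, 28 and 20 with perhexiline. The copy thus took 2.25%, 0.709% and 2.62% of the fragments of both rows with vehicle. With perhexiline it took 97.5% in replicate 1 (95% exact Clopper-Pearson interval 96.3% to 98.4%, counting error only), 39.4% in replicate 2 (28.0% to 51.7%) and 9.52% in replicate 3 (5.91% to 14.3%). Reads that match both rows equally cannot be assigned from the table, and no source used here says how they were counted.

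**Figure D2:**
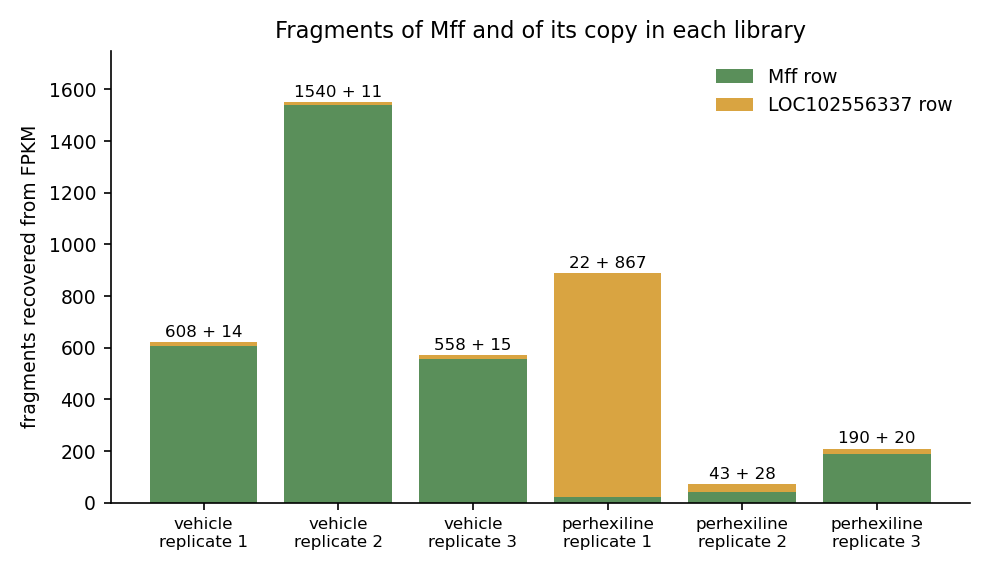
Fragments recovered from the deposited FPKM for the Mff row and for the row of its copy LOC102556337, stacked, in each of the 6 libraries, with the numbers of both above each bar. In perhexiline replicate 1 nearly all fragments were on the copy (867 against 22 on Mff), whereas the sum was lowest in perhexiline replicates 2 and 3.

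Summing the fragments of both rows over the length of Mff gave a value that does not depend on how the counted fragments were split between them. The value still depends on how reads that match both rows were counted, which no source used here gives. It also rests on gene models of unlike length, 2185 bases for Mff and 954 for the copy. This sum stood at 20.7, 46.4 and 18.8 FPKM with vehicle and at 23.5, 2.07 and 5.51 FPKM with perhexiline. Replicate 1 of the perhexiline group then lay among the vehicle libraries, and the groups overlapped. The log2 difference of the sum was -1.79 ± 0.70 (SE; limma adjusted p = 0.165), and an exact two-sided permutation test over the 6 libraries gave p = 0.3, where the smallest possible was 0.1. Without perhexiline replicate 1 the sum differed by -2.61 ± 0.45 (limma adjusted p = 0.0296), so that library decided whether the sum was called. The Mff row alone kept its call in 3 of the 6 fits without 1 library and lost it without vehicle replicate 1 (limma adjusted p = 0.0634), vehicle replicate 2 (0.0641) or perhexiline replicate 2 (0.0730). It was below 0 in all 6 of those fits.

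**Figure D3:**
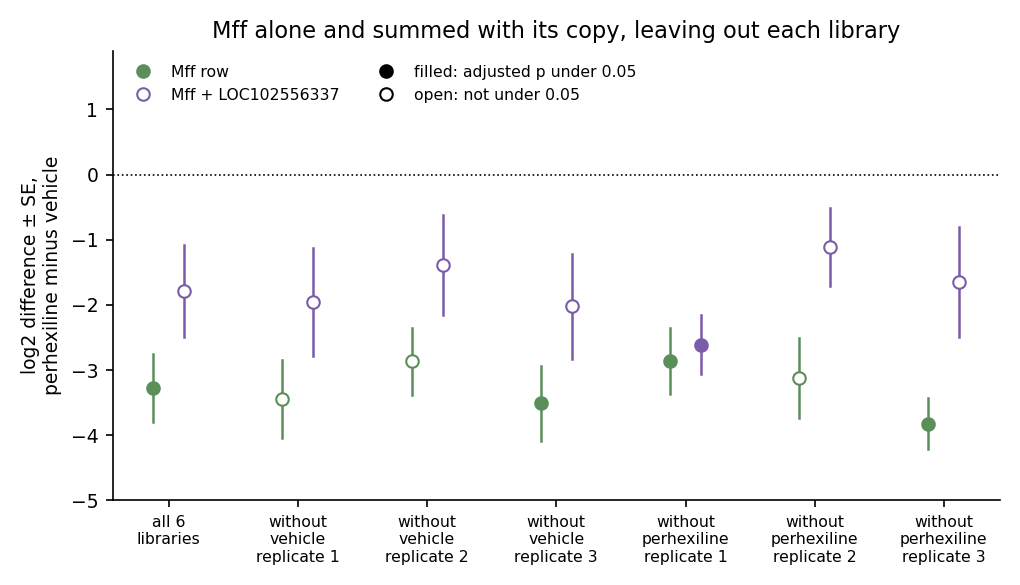
Log2 difference of perhexiline minus vehicle with its SE (limma) for the Mff row and for Mff summed with LOC102556337, with all 6 libraries and with each library left out. Filled points passed an adjusted p of 0.05. The sum passed only without perhexiline replicate 1, at -2.61, and lay between -1.11 and -2.02 in the other fits.

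Of the genes within 500 kb of the copy, looked at after these values were seen, 6 were tested. Limma called 1 of them, the chemokine gene Ccl20, which rose, where 6.66% of all tested genes were called. Within 500 kb of Mff itself, 1 gene was tested and 0 were called. Ccl20 stood at 18.9, 16.04 and 32.7 FPKM with vehicle and at 56.8, 67.6 and 45.3 FPKM with perhexiline. Its call was kept in 1 of the 6 fits without 1 library, that without vehicle replicate 3 (highest limma adjusted p 0.103). It passed in 7 of the 9 other alternatives, failing under the replicate block (0.0803) and when low genes were not filtered out (0.0816). The other tested genes near the copy had log2 differences from -0.88 (Col4a3) to 0.24 (Rhbdd1). Among all tested genes, 14.9% were lower without overlap and 17.0% higher. Col4a3 and Col4a4, which encode collagen IV chains, were lower without overlap, with mean changes of -52.4% and -30.1% (limma adjusted p = 0.0716 and 0.0797). Agfg1 and Rhbdd1 were higher without overlap and did not pass (0.239 and 0.130), and the groups of Irs1 overlapped.

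Genes without an assigned symbol (such as names beginning LOC, RGD or AABR) were left out of a search for genes like Mff. The most like it by Pearson correlation of log2(FPKM + 1) over the 6 libraries were then Ppm1e (0.998), Mcur1 (0.997) and Arsb (0.990). Ppm1e encodes a protein phosphatase, Mcur1 a regulator of the mitochondrial calcium uniporter and Arsb a lysosomal arylsulfatase. The 6 points share the group difference and their libraries, and the values describe these libraries only. Ppm1e fell from 13.6 ± 0.874 to 9.77 ± 0.937 FPKM (limma adjusted p = 0.0294), a call that was kept only when vehicle replicate 3 was left out among the 6 such fits (highest adjusted p 0.104), and Mcur1 and Arsb did not pass.

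Neither the gene of the fission motor nor those of the other adaptors passed the test. Dnm1l (chromosome 11, 88830957 to 88880198) stood at 53.3, 52.2 and 51.2 FPKM with vehicle and at 46.9, 49.0 and 50.4 FPKM with perhexiline. All perhexiline libraries were lower, by 6.66% in the mean, and the gene did not pass (log2 difference -0.10, 95% interval -0.21 to 0.01; limma adjusted p = 0.244). Fis1 (chromosome 12, 22750485 to 22765308), which encodes a small tail-anchored outer membrane protein, stood at 54.8, 60.9 and 57.1 FPKM with vehicle and at 56.0, 50.02 and 53.3 FPKM with perhexiline. The groups overlapped (limma adjusted p = 0.287).

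Mief1 and Mief2 encode related outer membrane proteins that bind DRP1, and their differences had opposite signs. Mief2 (chromosome 10, 46972038 to 46974806) stood at 40.2, 44.6 and 39.7 FPKM with vehicle and at 37.4, 32.1 and 36.6 FPKM with perhexiline, without overlap (log2 difference -0.23, 95% interval -0.40 to -0.05; limma unadjusted p = 0.0182, adjusted p = 0.113). Mief1 (chromosome 7, 121462966 to 121478546) stood at 17.4, 17.0 and 16.7 FPKM with vehicle and at 16.9, 18.4 and 18.7 FPKM with perhexiline, and the groups overlapped (limma adjusted p = 0.469). The ratio of Mief2 to Mief1 in FPKM was 2.31, 2.62 and 2.38 with vehicle and 2.21, 1.75 and 1.95 with perhexiline, lower in each perhexiline library than in any vehicle library. That ratio was formed after both values were seen and was not tested.

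Per length, Mff made up 15.2%, 27.3% and 13.9% of the summed FPKM of the 4 DRP1 adaptors with vehicle and 0.524%, 1.23% and 4.39% with perhexiline. The other adaptors together (Fis1, Mief1 and Mief2) stood at 112, 123 and 113 FPKM with vehicle and at 110.4, 100.5 and 109 FPKM with perhexiline. The share of Mff carries the uncertainty over its copy. Mtfr1 (chromosome 2, 104020955 to 104039198), which encodes mitochondrial fission regulator 1, stood at 29.3, 26.6 and 25.5 FPKM with vehicle and at 28.8, 32.4 and 27.1 FPKM with perhexiline. Its groups overlapped (limma adjusted p = 0.421), and it had the highest difference of the 9, 0.11 on the log2(FPKM + 1) scale.

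**Figure D4:**
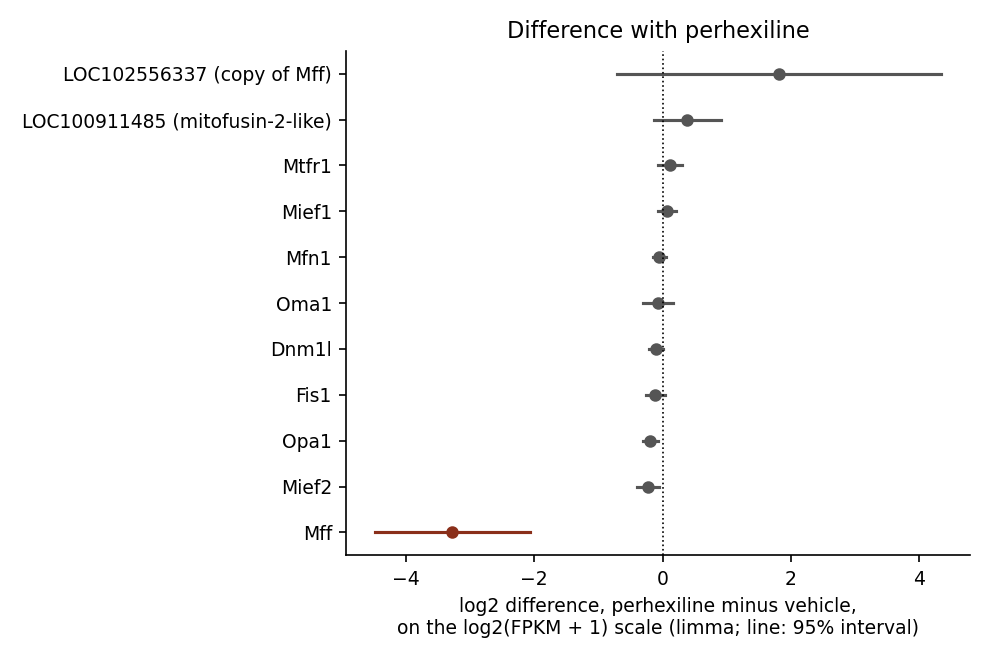
Log2 differences of perhexiline minus vehicle on the log2(FPKM + 1) scale with 95% intervals from limma for the 9 genes, the copy of Mff and the tested mitofusin-2-like row. Mff, at -3.27, is the only one that passed, and the intervals of its copy and of Mff itself are the widest.

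Among the fusion genes, Opa1 came closest to a call. It encodes the dynamin-like GTPase that fuses inner membranes and shapes the cristae (chromosome 11, 74720254 to 74793803, minus strand). It stood at 48.5, 47.3 and 44.7 FPKM with vehicle and at 40.4, 40.0 and 42.4 FPKM with perhexiline. Each perhexiline library was below each vehicle library, and the mean was 12.5% lower. The log2 difference was -0.19 ± 0.05 (SE; 95% interval -0.31 to -0.07), with limma unadjusted p = 0.00750 and adjusted p = 0.0716, and it passed in none of the alternatives, in which its lowest adjusted p was 0.0516 under upper-quartile scaling.

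Mfn1 encodes an outer membrane mitofusin (chromosome 2, 118929738 to 118973698) and had the highest level of the 9 genes. It stood at 74.0, 69.1 and 71.8 FPKM with vehicle and at 69.1, 70.0 and 68.4 FPKM with perhexiline. The groups overlapped, and the log2 difference was -0.05 (95% interval -0.16 to 0.06; limma adjusted p = 0.529), with its sign turned to 0.01 under total-fragment scaling. Within libraries, the ratio of Opa1 to Mfn1 in FPKM was 0.655, 0.684 and 0.622 with vehicle and 0.585, 0.572 and 0.621 with perhexiline, and the groups were separated only narrowly. The ratio reuses the Opa1 and Mfn1 values given above and was not tested.

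For mitofusin 2, the table held 2 rows under the symbol LOC100911485, both annotated as mitofusin-2-like. One of them (chromosome 5, 164684509 to 164714145) stood at 7.44, 4.36 and 4.47 FPKM with vehicle and at 6.22, 6.04 and 9.82 FPKM with perhexiline, and the groups overlapped (log2 difference 0.39 ± 0.22, SE; limma adjusted p = 0.320). The other held 0 to 5 fragments per library and was not tested. Neither was counted among the 9 genes. As no row was named Mfn2, whether these rows hold the reads of that gene cannot be read from the table.

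Oma1, the gene of the inner membrane protease that cleaves OPA1 under stress (chromosome 5, 122847645 to 122900475), had the lowest vehicle level. It stood at 6.05, 7.54 and 7.39 FPKM with vehicle and at 6.72, 7.10 and 6.05 FPKM with perhexiline, from 153 to 214 fragments per library. The groups overlapped and the 95% interval of the log2 difference ran from -0.30 to 0.17 (limma adjusted p = 0.719). Over the 8 genes other than Mff, the 95% intervals together ran from -0.40 to 0.30 on the log2(FPKM + 1) scale.

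By mean FPKM with vehicle, the order was Mfn1 (71.6), Fis1 (57.6), Dnm1l (52.2), Opa1 (46.8), Mief2 (41.5), Mff (28.2), Mtfr1 (27.1), Mief1 (17.0) and Oma1 (6.99). The libraries of neighbours in this order overlapped only for Mief2 with Mff and for Mff with Mtfr1. With perhexiline the order was the same except that Mff, at 2.27 FPKM, came last, and the neighbours that overlapped were Fis1 with Dnm1l and Mief2 with Mtfr1. Levels are per length of the gene models in the table, and a model that misses part of a transcript would shift them.

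Genes in lists related to these proteins were called about as often as tested genes in general. Over 9 related lists, 7 of 94 tested genes were called by limma (7.45%, against 6.66% of all tested genes), 2 higher and 5 lower. Counts at an unadjusted p under 0.05 in these lists stand against 25.7% of all tested genes, and those with limma-voom against 11.6%. Of 7 other tested fission genes 0 were called by limma, with 2 at an unadjusted p under 0.05 and 0 with limma-voom. The most abundant, Mtfr1l, a relative of Mtfr1, stood at 87.4 ± 4.54 and 88.5 ± 3.21 FPKM (SD, n = 3), and Dnm2, a dynamin of the cell membrane, at 52.1 ± 0.528 and 50.5 ± 1.73 FPKM. Of 7 tested genes of outer membrane fusion and mitochondrial transport, 1 fell and 0 rose: Trak2, an adaptor that links mitochondria to motor proteins, went from 125.3 ± 0.548 to 107 ± 2.56 FPKM (limma adjusted p = 0.0280).

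Among 18 tested regulators of DRP1 and the mitofusins, limma called 0. An unadjusted p under 0.05 was reached by 10 of the 18 (25.7% of all tested genes), and 13 differences were above 0 (52.9% of all tested genes), with a median of 0.08 against 0.01. Akap1, which anchors protein kinase A at the outer membrane, stood at 103 ± 9.13 with vehicle and 130.1 ± 9.28 FPKM with perhexiline (limma adjusted p = 0.0514). Pink1, a kinase that marks damaged mitochondria, stood at 104 ± 6.67 and 92.0 ± 5.04 FPKM (limma adjusted p = 0.149). In this list 3 genes were called higher with limma-voom or under total-fragment scaling, 2 with a mean FPKM of at least 5, and 1 without vehicle replicate 3 or perhexiline replicate 1. Of all tested genes, 757 of 13460 were called higher with limma-voom and 815 of 13527 under total-fragment scaling. With a mean FPKM of at least 5 it was 583 of 9282. Without vehicle replicate 3 or perhexiline replicate 1 it was 392 and 416 of 13460.

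Of 10 tested genes of OPA1 processing and inner membrane proteolysis 0 were called by limma, with 2 at an unadjusted p under 0.05 and 0 with limma-voom. Under total-fragment scaling 1 was called higher, Phb2, where 815 of 13527 tested genes were. Their most abundant members, the prohibitins Phb and Phb2, stood at 163 ± 2.19 and 168 ± 0.807 FPKM, and at 139 ± 2.86 and 153 ± 1.36 FPKM. Both were higher without overlap, as were 17.0% of all tested genes, and did not pass (limma adjusted p = 0.509 and 0.0832). Of 11 genes of the MICOS complex and cristae, which share the inner membrane folds with OPA1, 1 fell and 0 rose. That was the MICOS subunit gene Apoo, from 28.9 ± 1.97 to 22.4 ± 1.08 FPKM (limma adjusted p = 0.0292).

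Of 10 mitophagy receptor genes, Nipsnap2, whose product flags damaged mitochondria for autophagy, fell from 114 ± 1.47 to 89.6 ± 3.57 FPKM (limma adjusted p = 0.0132) and Optn, an autophagy receptor, rose from 19.2 ± 1.42 to 24.6 ± 1.94 FPKM (0.0461). Of 8 tested genes of cardiolipin synthesis, Pgs1, which catalyses an early step, rose from 22.8 ± 1.96 to 29.5 ± 0.977 FPKM (0.0332). Of 15 genes of protein import, outer membrane channels and the matrix, Cs, the gene of citrate synthase, fell from 343 ± 9.30 to 279 ± 12.7 FPKM (limma adjusted p = 0.0245). Timm44, of the import motor, fell from 67.8 ± 2.12 to 55.1 ± 3.48 FPKM (limma adjusted p = 0.0323). Peroxisome division shares DRP1 and its adaptors with mitochondria. Of the 9 genes in the peroxisome division list, which also holds genes of peroxisomal import and transport, limma called 0. There were 0 at an unadjusted p under 0.05 and 0 with limma-voom. The most abundant of these stood at 29.1 ± 1.15 and 27.99 ± 0.732 FPKM (Abcd3) and at 15.6 ± 0.859 and 17.4 ± 1.31 FPKM (Pex14). Abcd3 encodes a membrane transporter and Pex14 an import factor, so their values do not describe division. These calls were not kept in every fit without 1 library. Trak2, Nipsnap2, Cs and Timm44 each passed limma when vehicle replicate 3 or perhexiline replicate 1 was left out, and failed when any of the other 4 libraries was left out, where their highest adjusted p was 0.101, 0.0609, 0.0840 and 0.105. In those 4 fits the calls over all tested genes also fell, from 896 to 117 and 142 (vehicle replicates 1 and 2) and to 125 and 87 (perhexiline replicates 2 and 3). Optn passed only without perhexiline replicate 1 and Pgs1 only without vehicle replicate 3 (limma adjusted p up to 0.152 and 0.113), and Apoo passed in none of these fits (up to 0.0989).

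**Figure D5:**
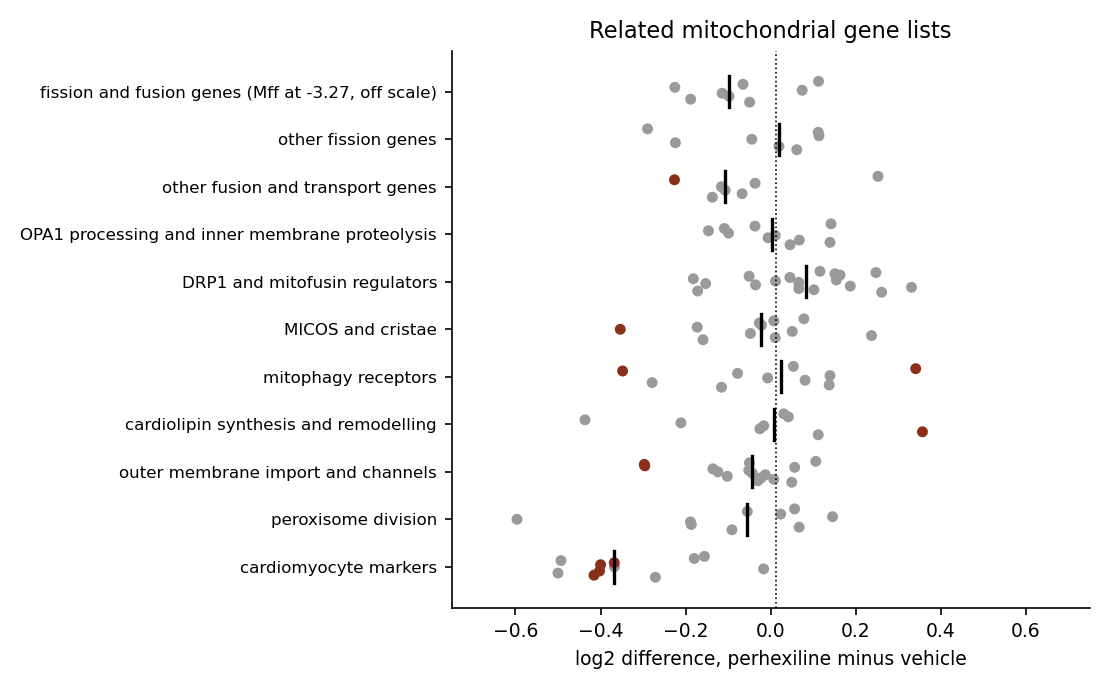
Log2 differences of perhexiline minus vehicle for each tested gene of the fission and fusion genes and of related lists, with dark points for called genes, a bar at each list's median and a dotted line at the median of all tested genes (0.01). The medians of the 9 related lists lay between -0.11 and 0.08. That of the cardiomyocyte markers, the only marker list drawn, was -0.37.

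Cell type markers moved in the same libraries. The 11 cardiomyocyte markers in the table were all detected, so the defining genes of the labelled cell type were present, with Myh6, a myosin heavy chain, at 3170 ± 268 FPKM and Tnni3, cardiac troponin I, at 1064 ± 82.7 FPKM with vehicle. All 11 differences were below 0 (47.1% of all tested genes). Limma called 4 lower (Actn2, Tnni3, Myh6 and Myl2), each kept in 1 or 2 of the 6 fits without 1 library. Among all tested genes, limma called 3.11% lower and 3.55% higher. The summed level of these markers was 16710 to 20103 FPKM with vehicle and 13613 to 15683 FPKM with perhexiline. The 9 macrophage and leukocyte markers summed to 94.5 to 99.2 and 52.1 to 79.0 FPKM, with 2 of 8 tested called lower (Mrc1 and C1qa). The calls of Mrc1 and C1qa were kept in 2 and 1 of the 6 fits without 1 library. Fibroblast markers summed to 1045 to 1084 and 1004 to 1051 FPKM, with 2 called higher and 1 lower among 9. Smooth muscle and pericyte markers summed to 785 to 1118 and 605 to 798 FPKM, and endothelial markers to 13.5 to 15.98 and 14.8 to 15.8 FPKM, with 0 of 7 and 0 of 3 tested genes called by limma, 5 and 0 at an unadjusted p under 0.05, and 3 (lower) and 0 with limma-voom. Of all tested genes, 25.7% had an unadjusted p under 0.05, and limma-voom called 5.98% lower. Immediate early genes, which respond to handling as well as to treatment, had 6 higher and 0 lower among 11 (3.55% of all tested genes were called higher). Of the 11, 2 were called higher with no filter on low values (99 of 22998 tested genes in all). It was 3 with the replicate block (101 of 13460) and 8 with limma-voom (757 of 13460). Without 1 library it ran from 1 (perhexiline replicate 3, 56 of 13460) to 7 (perhexiline replicate 1, 416 of 13460). No marker was at 0 in all libraries. The part of cell composition in the differences of the fission and fusion genes was not tested.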

How the data were processed

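The 6 libraries were grouped by their labels. The authors deposited 1 table of FPKM, per the file headers, with other columns for gene length and position. Per the labels' protocols, libraries were poly(A)-selected, dUTP-marked and read in pairs. DESeq2 and the aligner HISAT2 2.0.5 are named, without their roles, per the submitters' processing notes. No source used here names the build, annotation or counting program, and reads that match near copies equally cannot be told apart.

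FPKM times gene length gave whole multiples of 1 step per library for 100.0% of positive values (tolerance 0.01). These multiples were taken as fragments, 13616252 to 16702523 per library. Genes reaching 1 FPKM in 3 or more libraries entered the test, made on log2(FPKM + 1), which understates changes of low genes, with limma 3.58.1 under R 4.3.3 (two-sided moderated test, trended prior, group as the only term), and p-values were Benjamini-Hochberg adjusted over all 13460 genes. All 9 members passed the filter. Replicates were different libraries (chi-square per degree of freedom at least 4.70 between pairs). Alternatives were scalings, filters, pseudocounts, limma-voom, a replicate block and leaving out each library. Named genes were all members, the copy of Mff, up to 4 called genes per list or else the 2 most abundant, and the 3 genes with an assigned symbol most correlated with a called member. Members and lists were chosen with earlier results of these data known.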

Additional observations from a re-analysis of the deposited data

How the results depend on the processing

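The direction of Mff held in all 15 alternatives, with log2 differences from -4.05 to -2.87, and its limma adjusted p ranged from 0.00514 with limma-voom to 0.0730. None of the other 8 genes was called in any alternative (lowest adjusted p = 0.0516). The sign of Mfn1 turned under total-fragment scaling (0.0058). The members called lower were 0 with no filter on low values, 0 with the replicate block and 0 to 1 without 1 library. The genes called in all, 896, became 162 with no filter, 1562 with limma-voom, 173 with the replicate block and 87 to 841 without 1 library, namely 117 and 142 without vehicle replicates 1 and 2, and 125 and 87 without perhexiline replicates 2 and 3. The share of called genes that were higher was 71.0% under total-fragment scaling and 42.0% under upper-quartile scaling, against 53.3%. The summed Mff and copy ranged from -2.61 to -1.11 without 1 library and passed in 1 of 16 fits. The cause of these changes was not tested.

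The replicate numbers are not stated to pair libraries. Deviations of same-numbered libraries correlated at -0.10 to -0.02, and 0 of 6 libraries correlated best with their own number. With the replicate block, the adjusted p of Mff was 0.0536. Depth limits the copy of Mff, with 11 to 28 fragments outside perhexiline replicate 1, and the untested mitofusin-2-like row, with 0 to 5.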
